A study of Mus musculus with 16 samples.

Results

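The genes of glycolysis, lactate handling and the pentose phosphate pathway were followed in the cortex of 5xFAD mice. The set held 35 genes that were listed by name and kept where the deposited table gave at least 10 read pairs in at least 4 of the 16 libraries. All 35 met this rule, out of 47593 genes in the table, and all 35 were among the 16553 genes that could be tested. Bulk cortical RNA was sequenced in 16 libraries, with 4 female vehicle-treated (FC), 4 female rapamycin-treated (FR), 4 male vehicle-treated (MC) and 4 male rapamycin-treated (MR) samples. Every group carried the 5xFAD transgenes, which carry familial Alzheimer's disease mutations and are expressed in neurons from the Thy1 promoter, so that no comparison with mice lacking them was made. Rapamycin, an inhibitor of the kinase mTOR, was given in chow in a microencapsulated form (14 ppm of active drug), whereas vehicle-treated mice ate chow with the capsule carrier alone. Both diets ran from month 2 to month 5 of age, when the cortex was taken. One sentence of the study calls its cortical samples pooled, while the labels call the libraries biological replicates, and p-values here measure the spread between these libraries.

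Glycolysis turns glucose into pyruvate, which lactate dehydrogenase can convert to lactate and the pyruvate dehydrogenase complex can feed into the mitochondrial citric acid cycle. A side branch, the pentose phosphate pathway, supplies NADPH and ribose. In brain tissue these steps are divided among cell types, with astrocytes rich in aldolase C and monocarboxylate transporters passing lactate across cell membranes, and mTOR signalling and the hypoxia factor HIF-1 are known to raise the transcription of many glycolytic genes.

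The libraries held 16393501 to 20593089 counted read pairs, and the 35 genes took up 1.02% to 1.60% of them. Hk2 was the least covered of the main enzymes, at 61 to 168 read pairs, while Hk1 had 6866 to 11579. Levels are given as CPM, read pair counts scaled to library size with edgeR's TMM factors. The excitatory neuron marker Slc17a7 was at 1060 to 2410 CPM in all libraries. Against its label, male rapamycin 4 carried 9935 Xist read pairs and no Y-linked ones (0), so it is named below as the library labelled male rapamycin 4, and male vehicle 4 held 1927 CPM of summed choroid plexus markers where the other libraries held 13.1 to 326 CPM. With any 1 library left out, 3 to 6 of the members were called for treatment, as detailed beside the genes concerned, and without the library labelled male rapamycin 4 these were Aldoc, Slc16a7, Pdk2 and Pdk3. The slope of expression on exon length, taken as a measure of RNA or library quality, was computed from the same expression values. It ran from 0.000395 to 0.10 in vehicle-treated and from -0.127 to 0.064 in rapamycin-treated libraries (log2 CPM per log2 of exon length). Mitochondrial read pairs made up 2.64% to 5.47% of vehicle and 3.75% to 6.99% of rapamycin libraries. Female rapamycin 1 and 2 and male rapamycin 2 had the lowest slopes (-0.121, -0.127 and -0.122). They also had the highest mitochondrial shares (6.88%, 6.98% and 6.99%).

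Promoter sequence was at hand for 33 of the 35 genes, in 50 windows of RefSeq on GRCm38.p6 that reach from 250 bases before to 50 after a transcription start. Windows of 4 members called between rapamycin and vehicle are printed below, as the reference context of those genes. Aldoc, Pdk2 and Pfkfb3 each have another window, and the one with more of the searched cores is shown, with the core letters of the HIF binding motif in capitals. The letters searched were ACGTG and GCGTG on both strands, so that they also appear as CACGT and CACGC, and a CACGTG palindrome counts on both strands. 
Aldoc, chr11:78322823-78323122, plus strand: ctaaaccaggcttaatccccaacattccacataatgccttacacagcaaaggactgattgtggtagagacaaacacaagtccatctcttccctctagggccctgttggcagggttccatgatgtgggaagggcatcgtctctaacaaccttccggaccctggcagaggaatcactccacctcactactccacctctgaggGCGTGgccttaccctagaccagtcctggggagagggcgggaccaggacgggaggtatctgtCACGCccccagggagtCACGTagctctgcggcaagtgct
Pdk2, chr11:95041322-95041621, minus strand: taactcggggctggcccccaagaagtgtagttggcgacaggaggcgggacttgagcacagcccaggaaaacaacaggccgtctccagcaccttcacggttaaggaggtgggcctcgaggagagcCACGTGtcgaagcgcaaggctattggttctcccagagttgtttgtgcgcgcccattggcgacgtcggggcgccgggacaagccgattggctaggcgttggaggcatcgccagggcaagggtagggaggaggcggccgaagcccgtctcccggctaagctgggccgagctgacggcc
Taldo1, chr7:141391910-141392209, plus strand: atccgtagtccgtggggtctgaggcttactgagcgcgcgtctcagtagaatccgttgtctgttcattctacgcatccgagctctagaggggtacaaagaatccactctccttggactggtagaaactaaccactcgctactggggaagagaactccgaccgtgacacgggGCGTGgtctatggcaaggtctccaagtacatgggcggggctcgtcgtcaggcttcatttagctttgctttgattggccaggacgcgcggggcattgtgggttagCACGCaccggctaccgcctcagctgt
Pfkfb3, chr2:11502041-11502340, minus strand: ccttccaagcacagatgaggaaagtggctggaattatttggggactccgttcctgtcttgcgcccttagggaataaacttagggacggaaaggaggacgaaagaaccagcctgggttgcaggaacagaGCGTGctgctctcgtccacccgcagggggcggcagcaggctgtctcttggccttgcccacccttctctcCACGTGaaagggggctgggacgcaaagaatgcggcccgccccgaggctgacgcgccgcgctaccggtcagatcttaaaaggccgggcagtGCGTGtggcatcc
Slc16a7 was the remaining member with a called change. The printed Aldoc window held 3 such cores, the Taldo1 window 2 and the printed Pfkfb3 window 4, the latter including a CACGTG palindrome. The windows not printed held 1 (Aldoc), 0 (Pdk2) and 1 (Pfkfb3), and that of Pfkfb3 (chr2:11553880-11554179) overlaps the 5′ end of the gene as the count table gives it. In the printed Pdk2 window the 2 matches were the same palindrome read on both strands. Cores of this kind lay in 39 of the 50 member windows (78%) and in 14380 of 32851 windows of all genes (43.8%), and mean GC content was 60.2% in the member windows and 53.8% in all. The palindrome itself was in 14% of member windows and 7.15% of all, and the GC box GGGCGG in 56% and 35.7%. These shares describe letters, and no binding was measured.

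With both sexes in the fit, 5 of the 35 genes differed between rapamycin and vehicle, and 30 did not pass the test. Aldoc, Pdk2 and Taldo1 rose, and Pfkfb3 and Slc16a7 fell (edgeR's quasi-likelihood test, fitted on sex, batch and diet, with a Benjamini-Hochberg adjusted p under 0.05 over all genes). The called share, 14.3%, was near the 13.3% called over all genes tested (6.46% higher and 6.86% lower). Only Slc16a7 also passed a fold change of 1.5, which 2.26% of all genes did. At an unadjusted p under 0.05 there were 9 members (25.7%, against 30.4% of all genes), and the median log2 fold change was 0.05 over the members and 0.02 over all genes. The 95% interval of the log2 fold change lay above or below 0 for the 5 called genes and for Gpi1, Pdk3, Tkt and Tigar, whose adjusted p values were 0.0891, 0.0909, 0.148 and 0.114.

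**Figure D1:**
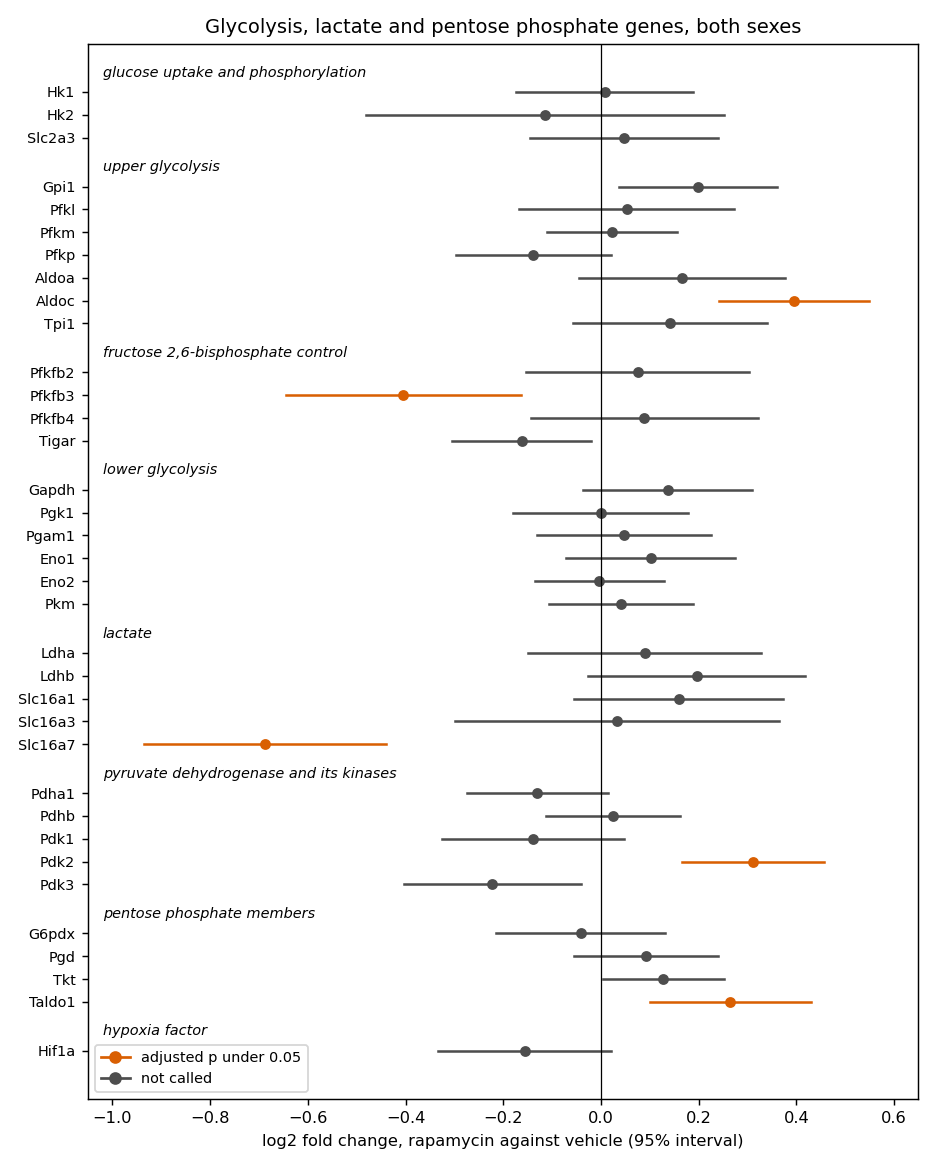
Log2 fold changes of the 35 genes between rapamycin- and vehicle-treated mice of both sexes, with 95% intervals, ordered by role. The genes with an adjusted p under 0.05 (orange) are Aldoc at 0.40, Pdk2 at 0.31, Taldo1 at 0.27, Pfkfb3 at -0.40 and Slc16a7 at -0.69.

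None of the members for glucose uptake and phosphorylation passed the test. Slc2a1, a glucose transporter gene outside the set, did pass and is given with the related genes below. Hk1, the main brain hexokinase, was at 478 ± 32.8 CPM with vehicle and 479 ± 67.0 CPM with rapamycin (SD, n = 8 each), with a log2 fold change of 0.01 and a 95% interval of -0.17 to 0.19. Hk2, the inducible hexokinase, was far less abundant, at 3.95 to 9.50 CPM with vehicle and 3.62 to 8.14 CPM with rapamycin, and its log2 fold change of -0.11 had a wide interval (-0.48 to 0.25). The neuronal glucose transporter gene Slc2a3 gave 0.05 (-0.15 to 0.24).

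Among the upper glycolytic enzymes, Aldoc was the gene that changed. It encodes aldolase C, the astrocyte-rich isozyme that splits fructose 1,6-bisphosphate, and lies on chromosome 11 (78322968 to 78327781, plus strand, GRCm38). Vehicle-treated females had 729, 757, 693 and 784 CPM and vehicle-treated males 829, 817, 818 and 655 CPM. Rapamycin-treated females had 1108, 1073, 886 and 955 CPM and rapamycin-treated males 1067, 1001, 856 and 979 CPM. Every rapamycin library was thus above every vehicle library, which held for no other member and for 0.127% of all genes. Treatment ranges that did not overlap in either direction made up 0.489% of all genes. The log2 fold change was 0.40 ± 0.07 (SE, 1.32-fold, adjusted p = 0.0104). The difference of mean log2 CPM was 0.40 in batch 1 (6 vehicle and 5 rapamycin libraries) and 0.39 in batch 2 (2 and 3). These batch sizes hold for the within-batch differences of the other genes too. Aldoc was picked from these same libraries, so its within-batch differences are no separate evidence. Leaving out any 1 library kept the call in 16 of 16 fits, with adjusted p from 0.0032 to 0.0322. Of the astrocyte markers 0 of 6 were called. At an unadjusted p under 0.05, which 30.4% of all genes had, there were 3. Their log2 fold changes were 0.28 (Gja1), 0.27 (Slc1a3) and 0.25 (Aldh1l1), and their part in the Aldoc result was not tested. The other 3 gave -0.42 (Gfap), -0.23 (Aqp4) and -0.07 (Slc1a2). The summed markers, of which Slc1a2 alone was 2283 to 4689 CPM, ran from 3780 to 5776 CPM with vehicle and from 3182 to 6186 CPM with rapamycin. In bulk tissue, a change in the number of cells of a type and a change in RNA per cell cannot be told apart. 

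Aldoa, the ubiquitous aldolase, ran from 1195 to 1885 CPM with vehicle and from 1048 to 2488 CPM with rapamycin, and did not pass (log2 fold change 0.17, adjusted p = 0.282). Gpi1, which interconverts glucose and fructose phosphates, stood at 544 ± 34.9 CPM with vehicle and 619 ± 81.0 CPM with rapamycin (SD, n = 8 each), with overlapping libraries. With 1 library left out it was called only without female rapamycin 4 (adjusted p = 0.0241), and 11.5% of its exon bases overlap another gene. The 3 phosphofructokinase genes, which encode the committed step, gave log2 fold changes of 0.05 (Pfkl), 0.02 (Pfkm) and -0.14 (Pfkp), and Tpi1, triose phosphate isomerase, gave 0.14. None of these 4 passed.

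The level of fructose 2,6-bisphosphate, the activator of phosphofructokinase, is set by the Pfkfb enzymes, and Pfkfb3 was the member of this group that changed. Pfkfb3, the isoform with the highest kinase to phosphatase activity, lies on chromosome 2 (11471433 to 11554077, minus strand). Its levels were 29.9, 40.5, 33.5 and 42.4 CPM in vehicle-treated females and 40.3, 50.5, 38.5 and 42.2 CPM in vehicle-treated males. With rapamycin they were 23.2, 31.2, 40.9 and 27.1 CPM in females and 30.2, 24.7, 35.9 and 30.1 CPM in males. The treatments overlapped, with female rapamycin 4 above 5 of the 8 vehicle libraries. Pfkfb3 fell by 0.40 ± 0.11 on the log2 scale (SE, adjusted p = 0.0298), and the within-batch differences of mean log2 CPM were -0.42 and -0.39. The call was lost in 7 of the 16 fits that left out a library, namely the library labelled male rapamycin 4, female vehicle 2 or 4, female rapamycin 1 or 5, male vehicle 2 and male rapamycin 2, with adjusted p up to 0.0742. Pfkfb2 and Pfkfb4, the heart-type and testis-type isoforms, gave log2 fold changes of 0.08 and 0.09, and Tigar, which lowers the same metabolite, gave -0.16 (28.0 ± 2.64 CPM with rapamycin against 32.0 ± 3.20 CPM with vehicle, SD, n = 8 each). None of these 3 passed the test.

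The 6 genes of lower glycolysis, which carry triose phosphates to pyruvate, did not pass the test in either direction. Their log2 fold changes with rapamycin lay between 0.00 (Eno2, the neuronal enolase) and 0.14 (Gapdh). Pkm, the pyruvate kinase gene, was between 1255 and 1931 CPM with vehicle and between 1160 and 1971 CPM with rapamycin, and the 95% interval of its log2 fold change was -0.11 to 0.19. The intervals of Pgk1, Pgam1 and Eno1 reached from -0.18 to 0.18, from -0.13 to 0.23 and from -0.07 to 0.28.

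In lactate handling, Slc16a7 fell, the member with the largest fold change of the 35. It encodes the high-affinity monocarboxylate transporter MCT2, found mainly on neurons, and lies on chromosome 10 (125226464 to 125328963, minus strand). Vehicle-treated mice had 14.02, 13.5, 18.2 and 16.3 CPM in females and 15.8, 14.1, 14.6 and 17.7 CPM in males. Rapamycin-treated mice had 7.86, 7.94, 13.8 and 11 CPM in females and 8.36, 7.06, 12.2 and 12.4 CPM in males. The ranges overlapped by 1 library, female rapamycin 4 at 13.8 CPM, which lay above female vehicle 2 alone. The log2 fold change was -0.69 ± 0.12 (SE, 95% interval -0.94 to -0.44, adjusted p = 0.00879), with within-batch differences of -0.80 in batch 1 and -0.45 in batch 2. It was called in 16 of 16 fits without 1 library. The other transporters, Slc16a1 (MCT1, of endothelium and glia) and Slc16a3 (MCT4, of astrocytes), gave log2 fold changes of 0.16 and 0.03 and did not pass. Ldha, the lactate dehydrogenase subunit of glycolytic tissue, gave 0.09, and Ldhb, the heart-type subunit, gave 0.20 (adjusted p = 0.635 and 0.22).

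Among the pyruvate dehydrogenase genes, Pdk2 rose. It encodes a kinase that switches the complex off and lies on chromosome 11 (95026258 to 95041354, minus strand). Vehicle-treated females had 109, 101, 90.1 and 102 CPM and vehicle-treated males 109, 95.8, 107 and 109.6 CPM. Rapamycin-treated females had 135, 134, 106 and 134 CPM and rapamycin-treated males 134, 118, 128 and 132 CPM. All rapamycin libraries except female rapamycin 4 lay above all vehicle libraries. The log2 fold change was 0.31 ± 0.07 (SE, adjusted p = 0.0145), it was 0.35 in batch 1 and 0.22 in batch 2 as differences of mean log2 CPM, and it was called in 16 of 16 fits without 1 library. Pdk1 and Pdk3, the other kinase genes of the set, gave log2 fold changes of -0.14 and -0.22 without passing. Pdk4, a kinase gene outside the set, gave 0.31 and did not pass either (adjusted p = 0.055). It stood at 10.8 ± 1.07 CPM with vehicle and 13.5 ± 1.99 CPM with rapamycin (SD, n = 8 each). Pdk1 stood at 83.5, 77.2, 102 and 67.8 CPM in vehicle-treated females, 85.8, 81.7, 65.8 and 74.5 CPM in vehicle-treated males, 87.3, 64.7, 73.7 and 82.3 CPM in rapamycin-treated females and 71.5, 63.1, 68.3 and 64.9 CPM in rapamycin-treated males. Pdk3 stood at 28.4, 26, 32.6 and 24.8 CPM in vehicle-treated females, 27.1, 27.5, 29.2 and 27.6 CPM in vehicle-treated males, 24.7, 21.4, 19.5 and 24.4 CPM in rapamycin-treated females and 24.3, 22.2, 24.9 and 30.02 CPM in rapamycin-treated males. The treatments overlapped for both genes. X-linked Pdk3 was called only when the library labelled male rapamycin 4 was left out (log2 fold change -0.27, adjusted p = 0.0418). The subunit genes Pdha1 and Pdhb gave -0.13 and 0.02.

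The make-up of the kinase transcripts of the set, without Pdk4, was set out per kb of exon. Pdk2 made up 52.4% to 63.7% of the 3 kinases in vehicle libraries and 66.2% to 71.8% in rapamycin libraries (means 60.6% ± 3.64 and 68.4% ± 1.72, SD, n = 8 each). The shares by library were 61.2%, 61.5%, 52.4% and 63.7% in vehicle-treated females and 61.4%, 58.8%, 62.9% and 63% in vehicle-treated males. With rapamycin they were 67.1%, 71.8%, 66.2% and 67.8% in females and 69.4%, 69%, 68.6% and 67.5% in males. Every rapamycin library had a higher Pdk2 share than every vehicle library. Of the 20 isozyme shares in 8 families this was the only 1 whose treatment ranges did not overlap, also without division by exon length. It was picked out after its values were seen and was not tested. Pdk3 made up 20.3% ± 1.52 with vehicle and 15.8% ± 1.45 with rapamycin, and Pdk1 19.1% ± 2.53 and 15.7% ± 1.85.

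**Figure D2:**
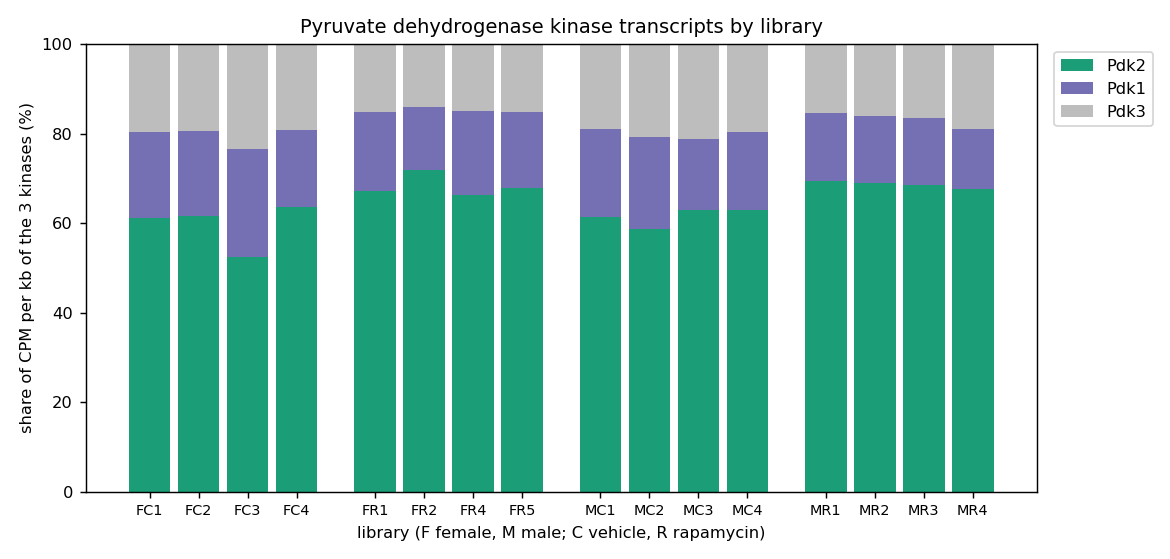
Share of each pyruvate dehydrogenase kinase gene of the set in the summed CPM per kb of the 3 genes, without Pdk4, 1 bar per library. Pdk2 (green) lies between 52.4% and 63.7% in the vehicle libraries (C) and between 66.2% and 71.8% in the rapamycin libraries (R).

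Of the pentose phosphate genes, Taldo1 rose. It encodes transaldolase of the non-oxidative branch and lies on chromosome 7 (141392199 to 141402968, plus strand). The vehicle libraries held 81.4, 82.7, 74.1 and 62.0 CPM in females and 77.8, 81.4, 83.7 and 60.8 CPM in males. The rapamycin libraries held 112, 102, 66.5 and 83.2 CPM in females and 80.7, 93.1, 81.3 and 86.6 CPM in males. The treatments overlapped widely, with female rapamycin 1 and 2 the highest of all libraries and the batch 2 vehicle libraries the lowest. The log2 fold change was 0.27 ± 0.08 (SE, adjusted p = 0.0348), with within-batch differences of 0.21 and 0.35. The call was kept in 4 of 16 fits without 1 library, those without female rapamycin 4, male vehicle 3, male rapamycin 1 or male rapamycin 3, and was lost in the other 12, with adjusted p up to 0.0951 without female rapamycin 1. Tkt, transketolase, was at 160 ± 11.99 CPM with vehicle and 173 ± 14.4 CPM with rapamycin (SD, n = 8 each), and Pgd and G6pdx of the NADPH-producing oxidative branch gave log2 fold changes of 0.09 and -0.04. None of these 3 passed. Hif1a, the oxygen-regulated HIF-1 subunit, had a log2 fold change of -0.16 (adjusted p = 0.219).

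**Figure D3:**
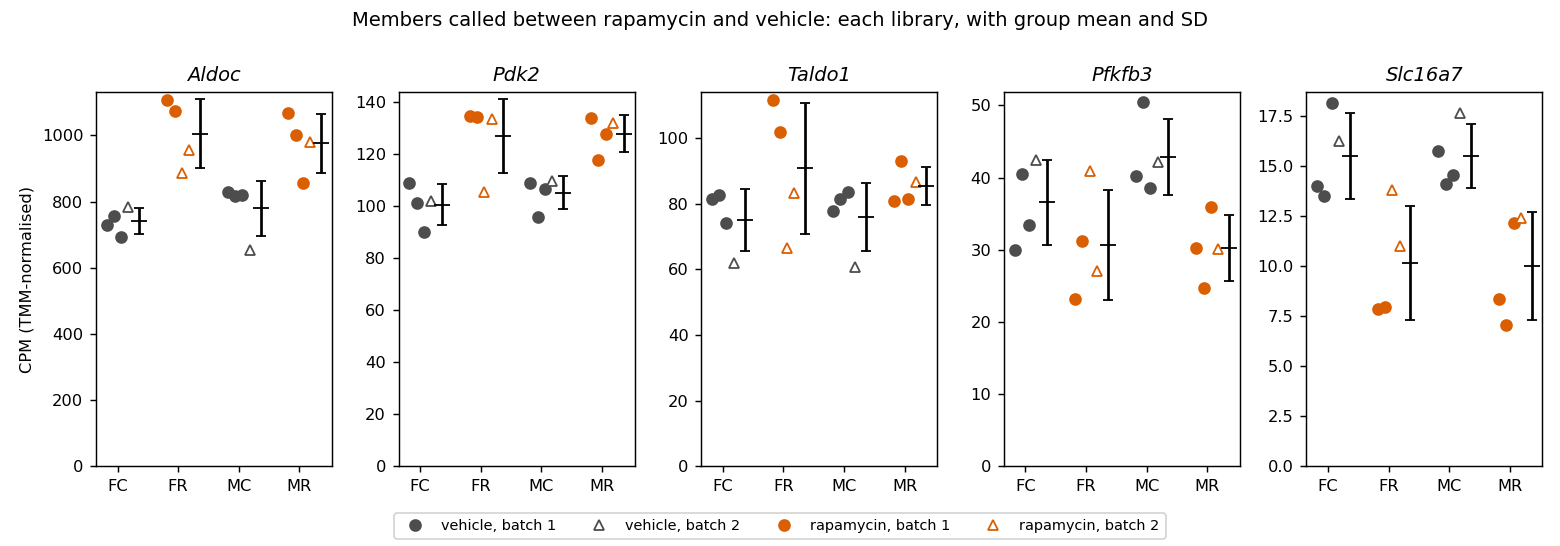
CPM of the 5 called genes in each library by group (FC and MC vehicle, FR and MR rapamycin), with circles for batch 1, open triangles for batch 2, and bars for the mean and SD of 4 libraries. All Aldoc values with rapamycin (856 to 1108 CPM) are above those with vehicle (655 to 829 CPM), whereas the treatments overlap for the other 4 genes.

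The treatment calls were lost when a covariate computed from each library's own counts was added to the fit. With the exon length slope as a covariate 0 of the 35 members and 0 of all genes were called, and the same held with the mitochondrial share, where 4 members had an unadjusted p under 0.05 (3 with the slope). With the slope in the fit the log2 fold changes were 0.24 for Aldoc, 0.20 for Pdk2, -0.01 for Taldo1, -0.18 for Pfkfb3 and -0.32 for Slc16a7, and 15 of the 35 members changed sign. With the mitochondrial share they were 0.30, 0.32, 0.16, -0.17 and -0.52. Pdk2 thus stayed near the 0.31 of the main fit, although its call was lost. Female rapamycin 1 and 2 and male rapamycin 2, with the lowest slopes, were the highest libraries for Taldo1 and the lowest for Slc16a7. They were not together the extremes for Aldoc, Pdk2 or Pfkfb3. The parts of diet, slope and mitochondrial share in these differences cannot be told apart here.

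Neither sex on its own gave a call among the members. By adjusted p, the calls were 0.0121% of all genes for females and 0.00% for males, where the lowest value among members was 0.0645 and 0.363, respectively. At an unadjusted p under 0.05 there were 8 members in females (22.9%, against 23.1% of all genes) and 4 in males (11.4%, against 12% of all genes). DESeq2 called 4 members in females, where it called 8.98% of all genes, and 0 in males, where it called 0.109%. The male rapamycin group here includes the library labelled male rapamycin 4, which is female by its Xist and Y-linked reads. The 5 genes called over both sexes had the same direction in each. They were picked from these same libraries, so the shared direction is no separate evidence. Aldoc gave log2 fold changes of 0.46 ± 0.10 in females and 0.33 ± 0.10 in males, Pdk2 0.34 ± 0.10 and 0.28 ± 0.10, and Slc16a7 -0.74 ± 0.17 and -0.64 ± 0.17 (SE, n = 4 against 4). Taldo1 gave 0.34 ± 0.11 and 0.19 ± 0.11, and Pfkfb3 -0.30 ± 0.16 and -0.51 ± 0.16. An interaction term compared the responses of females and males, with 0 members and 0.00% of all genes called by edgeR, 0 members at an unadjusted p under 0.05 (360 of all genes), and 0 members called by DESeq2. The 95% intervals of this difference on the log2 scale, female minus male, were wide, at -0.17 to 0.45 for Aldoc, -0.24 to 0.36 for Pdk2 and -0.60 to 0.41 for Slc16a7. Without the library labelled male rapamycin 4 the log2 fold changes in males were 0.29 for Aldoc, 0.26 for Pdk2, -0.66 for Slc16a7, 0.07 for Taldo1 and -0.46 for Pfkfb3, and 0 members were called in males or for the interaction. In females that fit called Aldoc and Slc16a7 (adjusted p = 0.0394 and 0.0485), with 2.07% of all genes called. With the library kept, the interaction does not cleanly compare females with males.

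Female and male vehicle-treated mice were compared because Pgk1, Pdha1, Pdk3 and G6pdx lie on the X chromosome. No member was called by edgeR or DESeq2 (0 at an unadjusted p under 0.05 by edgeR, 1 by DESeq2), beside 0.0121% of all genes. Of the X-linked members, Pgk1 stood at 419 ± 81.5 CPM in females and 455 ± 59.2 CPM in males, and Pdha1 at 189 ± 28.3 and 189 ± 19.8 CPM (SD, n = 4 each). Pdk3 stood at 28.0 ± 3.48 and 27.8 ± 0.91 CPM, and G6pdx, which shares 13.6% of its exon bases with a neighbour, at 30.0 ± 4.71 and 33.6 ± 4.11 CPM. The groups overlapped for each of these genes.

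The batch given in the labels separated the members more than the diet did by count of calls. Batch 2 held 5 libraries against 11 in batch 1, with replicate 4 of each group and female rapamycin 5. Among these, the library labelled male rapamycin 4 is female by its Xist and Y-linked reads but entered the fit as male. The sex term therefore does not fully account for sex in the batch comparison. In the same fit 20 of the 35 members were called between batches (57.1%, where 35.5% of all genes were), 17 of them lower in batch 2 (16.5% of all genes were called lower) and 3 higher (19.1% of all genes). All 6 lower glycolysis genes were lower in batch 2, by log2 differences between -0.44 (Eno1) and -0.26 (Eno2), and Aldoa, Tpi1, Ldha and Ldhb were lower too, at -0.47, -0.42, -0.48 and -0.39. Pfkfb2 (0.68), Pfkfb4 (0.41) and Slc16a7 (0.37) were higher in batch 2. The remaining called genes were Slc2a3 (-0.35), Hif1a (-0.34), Taldo1 (-0.32), Pdhb (-0.32), Pdha1 (-0.23), Tigar (-0.21) and Tkt (-0.17), and the values of Taldo1 and Slc16a7 by library stand with their treatment results. With 1 library left out, the batch call was kept in 5 of 16 fits for Tkt, 9 for Tigar, 12 for Slc16a7, 13 for Pdha1 and 15 for Ldhb, with adjusted p up to 0.189, 0.135, 0.0854, 0.109 and 0.0578, and in 16 for the other 15 genes.

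The values behind these differences are given here with the 5 batch 2 libraries in the order female vehicle 4, female rapamycin 4, female rapamycin 5, male vehicle 4 and the one labelled male rapamycin 4. Gapdh ran from 1677 to 1997 CPM in batch 1 with a median of 1752 CPM, and stood at 1224, 1079, 1542, 1355 and 1727 CPM in batch 2. Pgk1 ran from 429 to 501 CPM in batch 1 with a median of 460.3 CPM, and stood at 297, 271, 393, 373 and 449 CPM in batch 2. Pgam1 ran from 328 to 403 CPM in batch 1 with a median of 355 CPM, and stood at 233, 218, 312, 282 and 331 CPM in batch 2. These genes encode the dehydrogenase, kinase and mutase steps after the aldolase split, and 4, 4 and 4 of the 5 batch 2 libraries lay below all of batch 1. Eno1 ran from 1009 to 1361 CPM in batch 1 with a median of 1130 CPM, and stood at 798, 663, 1003, 873 and 850.1 CPM in batch 2. Eno2 ran from 813 to 936 CPM in batch 1 with a median of 886 CPM, and stood at 679.8, 649.5, 753, 779 and 797 CPM in batch 2. Pkm ran from 1616 to 1971 CPM in batch 1 with a median of 1872 CPM, and stood at 1255, 1160, 1477, 1414 and 1571 CPM in batch 2. For the enolases and pyruvate kinase all 5 batch 2 libraries lay below batch 1. Aldoa ran from 1608 to 2488 CPM in batch 1 with a median of 1824 CPM, and stood at 1195, 1048, 1623, 1459 and 1599 CPM in batch 2. Tpi1 ran from 644 to 763 CPM in batch 1 with a median of 701 CPM, and stood at 450.4, 395, 652, 493 and 682 CPM in batch 2. For these aldolase and isomerase genes the number below all of batch 1 was 4 and 3 of 5. Ldha ran from 298 to 481 CPM in batch 1 with a median of 373 CPM, and stood at 253, 200.3, 362, 266 and 293 CPM in batch 2. Ldhb ran from 446 to 766 CPM in batch 1 with a median of 526 CPM, and stood at 371, 409.6, 486, 442 and 479 CPM in batch 2. Slc2a3 ran from 152 to 231 CPM in batch 1 with a median of 189 CPM, and stood at 146, 128, 158, 161 and 138 CPM in batch 2. In the lactate dehydrogenase genes 4 and 3 and in the glucose transporter gene 3 of the 5 libraries lay below batch 1.

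Pdha1 ran from 165 to 210.1 CPM in batch 1 with a median of 192 CPM, and stood at 148, 139, 158, 167 and 176 CPM in batch 2. Pdhb ran from 115 to 140.1 CPM in batch 1 with a median of 129 CPM, and stood at 101, 87.3, 114, 98.8 and 112 CPM in batch 2. Both encode subunits of the enzyme that turns pyruvate into acetyl-CoA, and 3 and 5 of the 5 batch 2 libraries lay below batch 1. Hif1a ran from 63.6 to 100 CPM in batch 1 with a median of 71.8 CPM, and stood at 57.4, 55, 51.5, 62.1 and 66.4 CPM in batch 2. Tkt ran from 157 to 199 CPM in batch 1 with a median of 167 CPM, and stood at 136, 156, 171, 152 and 161 CPM in batch 2. Tigar ran from 27 to 36 CPM in batch 1 with a median of 31.1 CPM, and stood at 27.6, 23.2, 28.6, 28.1 and 26.9 CPM in batch 2. In these 3 genes 4, 3 and 2 of the 5 lay below batch 1, so that the batches overlapped. Pfkfb2 ran from 13.7 to 22.5 CPM in batch 1 with a median of 17.5 CPM, and stood at 30, 35.7, 25.1, 28.8 and 25.3 CPM in batch 2. Pfkfb4 ran from 10.5 to 16.6 CPM in batch 1 with a median of 13.97 CPM, and stood at 20, 24.3, 18.7, 16.7 and 15.4 CPM in batch 2. In this pair of higher genes 5 and 4 of the 5 lay above all of batch 1, and 19.5% of the Pfkfb2 exon bases overlap other genes.

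The batches did not overlap for 5 members, Pfkfb2, Eno1, Eno2, Pkm and Pdhb, nor for 7.21% of all genes. Within batch 2 the values spread, with female rapamycin 4 the lowest of all libraries for 16 of 35 members (11.6% of all genes) and female vehicle 4 for 6. At the other end, female rapamycin 1 of batch 1 was the highest for 15 members (9.64% of all genes). The called genes Aldoc, Pdk2 and Pfkfb3 were not called between batches (log2 differences -0.11, -0.01 and 0.18), whereas Taldo1 was lower in batch 2 with a log2 difference of -0.32. Adding the slope, or the share of mitochondrial pairs, as a covariate left 4 members called between batches in each fit. The share of all genes called in those fits is not given here, so the lower count cannot be read as particular to the members.

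**Figure D4:**
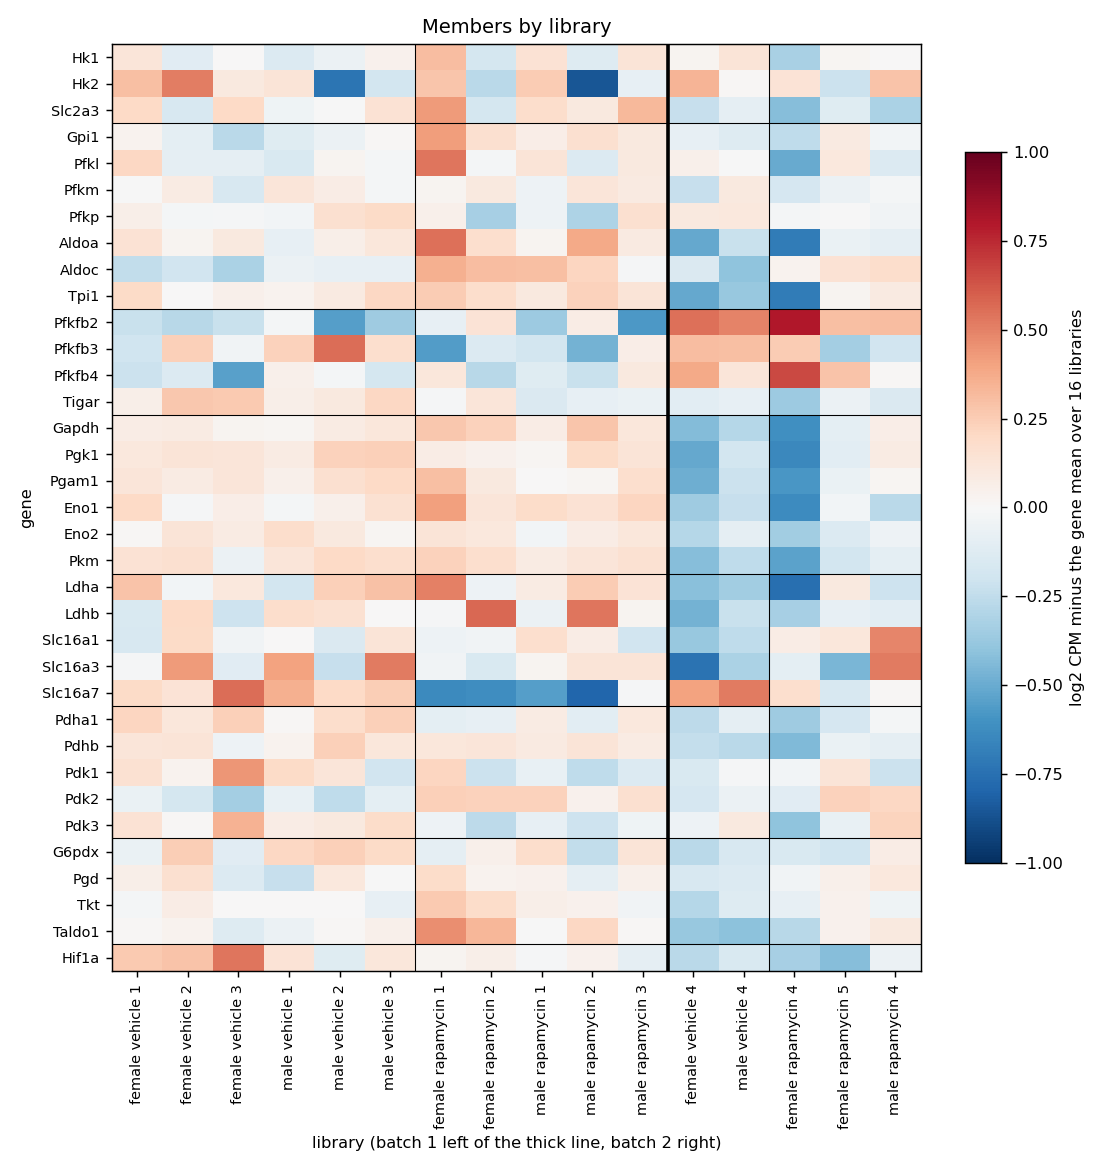
Log2 CPM of each gene minus its mean over the 16 libraries, with batch 1 left of the thick line and rapamycin right of the thin line within each batch. The lower glycolysis genes are blue in batch 2 except for Gapdh, Pgk1 and Pgam1 in the library labelled male rapamycin 4, most of all in female rapamycin 4 and female vehicle 4, and Pfkfb2 and Pfkfb4 are red there.

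**Figure D5:**
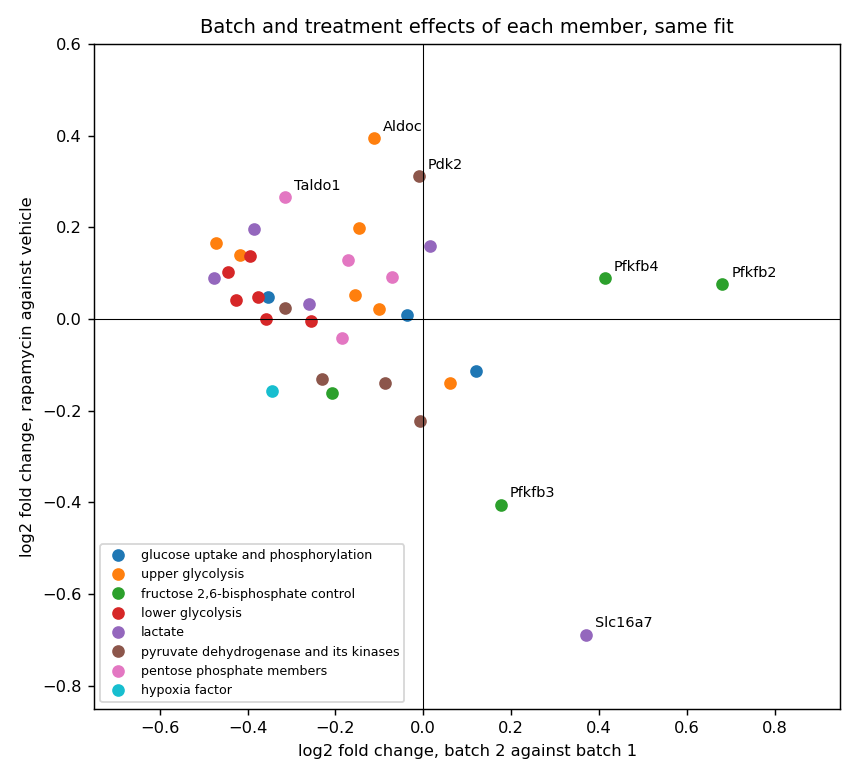
Log2 fold change between batches (horizontal) and between treatments (vertical) of each of the 35 genes from the same fit, coloured by role. The lower glycolysis genes lie between -0.44 and -0.26 on the batch axis and between 0.00 and 0.14 on the treatment axis, while Aldoc and Pdk2 lie near 0 on the batch axis.

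Levels per kb of exon ranked the members from Pkm to Hk2. Pkm was the highest at 655 CPM per kb (mean of 16 libraries, 446 to 758), followed by Aldoa at 461 and Gapdh at 405. Aldoa and Gapdh overlapped between libraries (279 to 661 and 261 to 483). The lowest were Hk2 at 1.15, Slc16a3 at 1.76 and Pfkfb2 at 2.93 CPM per kb. Among isozymes, Hk1 made up 98.0% ± 0.49 of the 2 hexokinases, Pfkm 66.3% ± 2.85 of the 3 phosphofructokinases, Aldoa 62.9% ± 5.06 of the 2 aldolases, Ldhb 74.1% ± 4.24 of the lactate dehydrogenases and Eno1 52.0% ± 2.85 of the 2 enolases (SD, n = 16). The Aldoc share of the aldolases was 34.7% ± 4.01 with vehicle and 39.4% ± 5.11 with rapamycin, with overlapping libraries (30.5% to 43.1% and 33.9% to 49.4%). The Slc16a7 share of the 3 lactate transporters was 26.7% ± 4.45 with vehicle and 17.5% ± 3.85 with rapamycin, also overlapping (20.4% to 32.8% and 12.9% to 23.1%). Coefficients of variation of CPM over the 16 libraries were from 7.41% (Pfkm) to 29.7% (Pfkfb2).

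Beyond the 35 members, 7 lists of related genes held 76 genes, of which 70 were tested and 11 were called with rapamycin in both sexes. This share of 15.7% was near the 13.3% called over all genes tested, beside which the counts by list also stand. Of 14 other glycolytic enzyme genes tested, 2 rose and 1 fell, among them the phosphoglucomutase genes Pgm2 (0.24) and Pgm2l1 (-0.43) on the log2 scale. Pgm2l1 stood at 520.3 ± 115 CPM with vehicle and 380.3 ± 72.4 CPM with rapamycin (SD, n = 8 each). Among 7 hexose transporters 1 rose, Slc2a1, the glucose transporter of brain endothelium and astrocytes, from 99.3 ± 16.6 to 139 ± 40.0 CPM (log2 fold change 0.49, adjusted p = 0.0295), and 92.3 to 195 CPM with rapamycin overlapped 69.9 to 126 CPM with vehicle. Mpc2, a subunit of the mitochondrial pyruvate carrier, rose by 0.27 as the 1 of 5 transport genes called, and G6pc3, a glucose-6-phosphatase, by 0.24 as the 1 of 13 in gluconeogenesis and glycogen metabolism.

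In the pyruvate dehydrogenase list 1 of 7 genes fell, Pdpr, the regulatory subunit of the phosphatase that switches the complex on, by a log2 fold change of -0.72 (adjusted p = 0.0159). Its level was 28.0 ± 4.92 CPM with vehicle and 19.2 ± 9.12 CPM with rapamycin (SD, n = 8 each), from 9.03 to 35.5 CPM in the latter. Of 7 further pentose phosphate genes 1 fell, Prps2, a ribose phosphate pyrophosphokinase (-0.26). Of 17 genes of the HIF pathway 3 rose, Egln2 (0.27), a prolyl hydroxylase that marks HIF for degradation, Hif3a (0.95), and Ddit4 (0.57), whose product restrains mTOR. Ddit4 stood at 37.3 ± 8.84 CPM with vehicle and 55.2 ± 13.8 CPM with rapamycin. The medians of the lists lay between -0.06 and 0.20, beside 0.02 for all genes.

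Marker genes of cell types were read beside these values, with the 13.3% called over all genes tested as reference. Of glutamatergic neuron markers 1 of 6 fell, and of endothelial markers 1 of 6 rose, Ly6c1 (0.59). Of the choroid plexus markers 2 of 6 fell, Cldn2 (-2.25) and Sostdc1 (-1.89), with male vehicle 4 as the highest library, and without that library 4 of the 35 members were called, Pfkfb3, Aldoc, Slc16a7 and Pdk2. None of the 6 markers each of GABAergic neurons, astrocytes, oligodendrocytes and microglia, and none of the 5 of red blood cells, was called by edgeR. At an unadjusted p under 0.05 there were 1, 3, 2, 1 and 0, beside 30.4% of all genes. The summed oligodendrocyte markers ran from 3650 to 5911 CPM with vehicle and from 3631 to 9465 CPM with rapamycin, and the microglial markers from 401 to 714 and from 281 to 567 CPM. The part of cell composition in the members' changes was not tested.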

How the data were processed

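Cortical poly(A) RNA was sequenced in 16 libraries as 150 bp read pairs. The deposited values are raw read pair counts per gene, which the authors made by trimming 10 bases from each read, aligning to GRCm38 (mm10) with HISAT2 2.2.1 and counting pairs on Ensembl exons by gene name with featureCounts 2.0.3, without regard to strand. The submitters' processing notes also name Trim Galore, FastQC 0.11.9 and Trimmomatic 0.39. Multi-mapping and multi-overlapping pairs were not counted, so genes with near-identical copies such as Gapdh, Pgk1 and Pgam1 can be undercounted.

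Groups, sex and batch came from the labels. Counts were filtered with filterByExpr (minimum count 10), scaled with TMM and tested with edgeR 4.0.16 in R 4.3.3 (glmQLFit, glmQLFTest). The comparison over both sexes and that of the batches were fitted with sex, batch and treatment, and the other comparisons with 4 groups and batch. The fits covered 16553 genes holding 99.9% of read pairs, with a biological coefficient of variation of 0.186, and p-values were adjusted over all of them. A called gene had an adjusted p under 0.05. Read pairs of libraries in a group differed by more than sampling noise (chi-square per degree of freedom 11.5 to 128 over 24 pairs), so each was counted once. DESeq2 1.42.0, other scaling, filters, terms and left-out libraries were tried as alternatives, and scripts were tested on simulated data. Log2 CPM used a prior count of 2. Exon length slope is the slope of a gene's log2 CPM deviation on log2 exon length. Per-kb levels used the table's exon lengths, and promoter windows came from RefSeq on GRCm38.p6. The rule for named genes was all 35 members, with values in every library where a comparison called the gene or the isozyme comparison turned on it, and other pathway genes only where called with treatment. Pdk4, which was not called, was added beside the kinase genes of the set. Some items that the rule would name are not reported here. For genes called between batches alone, the 11 libraries of batch 1 are given as lowest, median and highest value. The members and lists were chosen with earlier results of these data known. Figures used Python 3.11.15, NumPy 2.4.6 and matplotlib 3.10.9.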

Additional observations from a re-analysis of the deposited data

Results flagged for a closer look

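In groups of 4 libraries the highest or lowest value was checked against the spread of the other 3 (Dixon's test at 95%). Of 140 such groups, 8 stood out (5.71%), where chance gives about 1 in 20. In female vehicle 4, a batch 2 library in a group otherwise of batch 1, Gapdh was 1224 CPM (next 1684), Pgk1 297 CPM (next 455), Pgam1 233 CPM (next 345) and Pfkfb2 30.0 CPM (next 17.5). In male vehicle 4, likewise the batch 2 library of its group, Aldoc was 655 CPM (next 817) and G6pdx 27.5 CPM (next 35.1). In female rapamycin 4, Pdk2 was 106 CPM (next 134), the 1 rapamycin library within the vehicle range. In male rapamycin 3, Pgam1 was 368 CPM (next 332). These values were kept in the comparisons, and Aldoc and Pdk2 were called whichever of the 16 libraries was left out.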

How the results depend on the processing

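Rapamycin against vehicle in both sexes gave 5 called members, and 5 again with RLE size factors, DESeq2 or no low-count filter. There were 3 without the batch term, 3 in batch 1 alone, 3 with the replicate block in place of batch, 0 with the exon length slope, 0 with the mitochondrial share and 1 with the 1.5-fold rule. Aldoc, Pdk2 and Slc16a7 were among the 5 and were the 3 genes called without the batch term, in batch 1 alone and with the block. Taldo1 turned to -0.01 with the slope. Leaving out 1 library gave 3 to 6 calls. In females the count of 0 became 4 with DESeq2, 2 without the filter, 4 in batch 1 alone, and 0 to 5 with 1 library left out, 5 of them without female rapamycin 4. In males it became 2 without the filter, and was 0 in all fits without 1 library, as it was for the interaction and for females against males in vehicle. The 20 calls between batches became 1 with the 1.5-fold rule, 4 with the slope, 4 with the mitochondrial share and 16 to 21 without 1 library. The causes of these shifts were not tested. Most of these counts stand without the share of all genes called under the same setting, so they do not set the members apart from other genes. No steady pairing of the mice by replicate number was seen, though these correlations cannot exclude one. Of same-number pairs of libraries, 7 of 21 correlated above 0.1 (-0.433 to 0.366), and 4 of 15 libraries correlated best with their own number. Depth limits precision most for Hk2, at 61 to 168 read pairs.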
